A study of Brassica napus with 24 samples.

Results

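The 5 genes described here, BnaA01g09900D, BnaC01g11550D, BnaA01g29390D, BnaCnng32080D and BnaA09g41150D, are those of *Brassica napus* (oilseed rape) annotated as carotenoid oxygenase in a shortened copy of the study's gene table, the only part of it that was read. They are 5 of 101040 annotated genes, and all 5 were among the 54835 genes that passed the filter on low counts. That table holds only genes listed by the study as changed under water deficit (WD) at 5 d, 11 d or 20 d, so the genes were selected on the WD responses of their counts at these 3 harvests, which are given as a description, without a test. The harvest at 18 d played no part in that choice, and its response was tested. Other carotenoid oxygenase genes of the genome, whether they responded or not, were not analysed here, and the rest of that table may list more of them.

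Carotenoid oxygenases open the chain of a carotenoid at a double bond and release apocarotenoids. The family is best known in leaves for the 9-cis-epoxycarotenoid dioxygenases (NCED), which cut neoxanthin or violaxanthin to xanthoxin, the committed step towards abscisic acid (ABA), the hormone that closes stomata when water is short. Its other branch, the carotenoid cleavage dioxygenases (CCD), yields strigolactone precursors, ionones and pigments, and takes part in the turnover of carotenoids in plastids. The annotation does not say to which branch each of the 5 genes belongs, so the exact substrate of each product is not given here. The letters after "Bna" in each identifier name the chromosome (A01, C01 or A09), with Cnn for sequence of the C subgenome that is not placed on a chromosome.

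All plants were of the wild type cultivar Trezzor, grown in a greenhouse in compost at 80% of field capacity (FC), and leaf blades that had grown during the treatment were sampled. Polyadenylated RNA was sequenced in 8 groups of 3 libraries, control and WD at each of 4 harvests, 24 libraries in all. Controls stayed at 80% FC throughout, whereas WD plants had their watering stopped. The labels give 50% FC for the first WD harvest (5 d, for which the methods of the study give 40% FC) and 25% FC for the second (11 d). In 2 further groups of WD plants the soil was then held at 50% FC until 18 d or at 25% FC until 20 d. The labels of the 25% FC harvest carry the date of the 5 d harvest, and 11 d was taken from the methods of the study. Those methods describe a replicate as a pool of 2 plants, and they do not describe the 18 d plants.

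Expression is given as CPM, the count of read pairs on a gene relative to the size of its library, scaled between libraries by the trimmed mean of M-values (TMM). A log2 fold change of 1 is a doubling. The libraries held between 13263953 and 31112368 pairs counted on genes (median 15710704). Pairs that mapped to several loci, between 7.77% and 9.45% of a library, were counted on no gene, so pairs shared by near-identical copies are missing from the values below. CPM is not divided by gene length and the lengths were not available here, so the levels of different genes are not ranked against each other. In whole leaves, fewer cells of a type and less RNA per cell cannot be told apart. The 3 genes annotated as chlorophyll a/b binding, the light-harvesting proteins of green tissue, were detected in every library at 2.08 CPM or more. They come from the same shortened table of changed genes. Their detection cannot tell leaves from other green tissue, so it is no test of the leaf label.

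Of the 24 libraries, 22 were nearer to the other libraries of their own group than to the mean of the other treatment at the same harvest (root mean square difference of log2(CPM + 1) over all genes tested). WD replicate 3 of 18 d lay 0.752 from its own group and 0.721 from the 18 d controls. Control replicate 1 of 11 d lay 0.784 from its own group and 0.434 from the 11 d WD libraries. Both kept their labels, and the fold changes that use them, and the tests of gene ratios at 18 d, are also given without them.

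BnaA01g09900D was abundant in every library and its mean level was higher under WD than in controls at each harvest. The 5 d controls had 228.8, 165.7 and 274.9 CPM (replicates 1, 2 and 3) and the 5 d WD leaves 489.0, 371.1 and 311.5 CPM. At 11 d the controls had 350.8, 189.8 and 268.0 CPM and the WD leaves 350.7, 606.6 and 1372 CPM. The WD libraries of 5 d lay above all controls of that harvest, whereas at 11 d WD replicate 1 was level with control replicate 1 and WD replicate 3 was the highest of the 24. The 18 d controls had 386.9, 344.0 and 385.6 CPM, against 832.5, 831.5 and 768.4 CPM in the WD leaves kept at 50% FC. At 20 d the controls had 323.9, 303.8 and 290.8 CPM and the WD leaves, kept at 25% FC, 1017, 813.4 and 819.2 CPM. Both final harvests had tight replicates, with a coefficient of variation of 4.53% in WD at 18 d against 68.4% in WD at 11 d, and no overlap between treatments. In the order of the 8 group means (control 5, 11, 20 and 18 d, then WD 5, 11, 18 and 20 d), the libraries of neighbouring groups overlapped except between the 20 d and the 18 d controls.

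BnaC01g11550D had the largest fitted difference of the 5 at 20 d. At 5 d its controls had 134.0, 74.74 and 70.79 CPM and its WD leaves 231.9, 188.1 and 120.2 CPM. At 11 d the controls had 130.6, 71.72 and 83.64 CPM and the WD leaves 258.2, 136.1 and 575.2 CPM. WD replicate 3 of 5 d fell inside the range of the controls, while at 11 d the lowest WD library was just above the highest control. The 18 d controls had 420.0, 166.1 and 202.6 CPM and the 18 d WD leaves 458.8, 382.1 and 404.9 CPM. At 20 d the controls had 77.35, 122.7 and 129.3 CPM and the WD leaves 733.6, 555.9 and 664.2 CPM. Control replicate 1 of 18 d thus reached the level of the WD leaves, which the other 18 d controls did not, and at 20 d every WD library was above every control and every WD library of 18 d. Among neighbours in the order of group means, only the 2 highest groups, WD at 18 d and WD at 20 d, did not overlap.

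BnaA01g29390D was nearly silent in young leaves and reached its highest level at the end of the severe deficit. At 5 d the controls had 1.09, 1.01 and 0.634 CPM, from 14, 13 and 14 read pairs, and the WD leaves 1.02, 1.85 and 1.04 CPM. At 11 d the controls had 4.58, 1.36 and 0.299 CPM, from 61, 22 and 5 pairs, and the WD leaves 2.91, 3.59 and 7.31 CPM. The highest of these 11 d controls is the library that lay nearer to the WD leaves. The 18 d controls had 8.34, 6.69 and 15.7 CPM and the 18 d WD leaves 22.2, 25.4 and 4.57 CPM. At 20 d the controls had 4.39, 9.44 and 9.16 CPM and the WD leaves 32.1, 43.1 and 31.0 CPM. WD replicates 1 and 2 of 18 d were above all 18 d controls and WD replicate 3 was below all of them, whereas at 20 d the WD libraries were the 3 highest of the 24.

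BnaCnng32080D followed a similar course at fewer counts. At 5 d it had 0.546, 0.778 and 0.181 CPM in controls, from 7, 10 and 4 pairs, and 0.749, 0.498 and 0.912 CPM under WD. At 11 d the controls had 1.05, 1.55 and 1.14 CPM and the WD leaves 1.74, 2.20 and 4.25 CPM. The treatments overlapped at 5 d and not at 11 d. At 18 d the controls had 4.84, 3.37 and 3.82 CPM, and the WD leaves 11.2, 11.8 and 2.46 CPM. At 20 d there were 2.06, 7.14 and 5.83 CPM in controls and 10.2, 16.1 and 12.4 CPM under WD. Here too WD replicate 3 of 18 d lay below every control of its harvest, and at 20 d all WD libraries lay above all controls. Of the neighbours in the order of group means, WD at 5 d and the 11 d controls, and the 11 d controls and WD at 11 d, did not overlap.

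BnaA09g41150D was the least detected of the 5 and the one whose mean level was below that of the controls at 2 harvests. At 5 d its controls held 0, 3 and 4 pairs and its WD leaves 3, 5 and 4, where a count of 0 allows up to 3 pairs, or 0.234 CPM in that library, by counting error alone. At 11 d the controls had 0.300, 1.30 and 2.09 CPM, from 4, 21 and 35 pairs, and the WD leaves 0.740, 0.482 and 0.266 CPM. The lowest of those controls is again the library that lay nearer to the WD leaves. The 18 d controls had 0.672, 0.663 and 0.654 CPM, from 10, 11 and 13 pairs, and the 18 d WD leaves 2.83, 3.08 and 0.421 CPM, from 36, 46 and 7 pairs. At 20 d the controls had 2.25, 1.59 and 1.70 CPM, from 82, 27 and 26 pairs, and the WD leaves 0.560, 0.303 and 0.740 CPM, from 7, 4 and 14 pairs. Under the mild deficit of 18 d replicates 1 and 2 were thus above all controls, and under the severe deficit of 20 d all WD libraries were below all controls. In the order of its group means every pair of neighbouring groups overlapped.

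**Figure D1:**
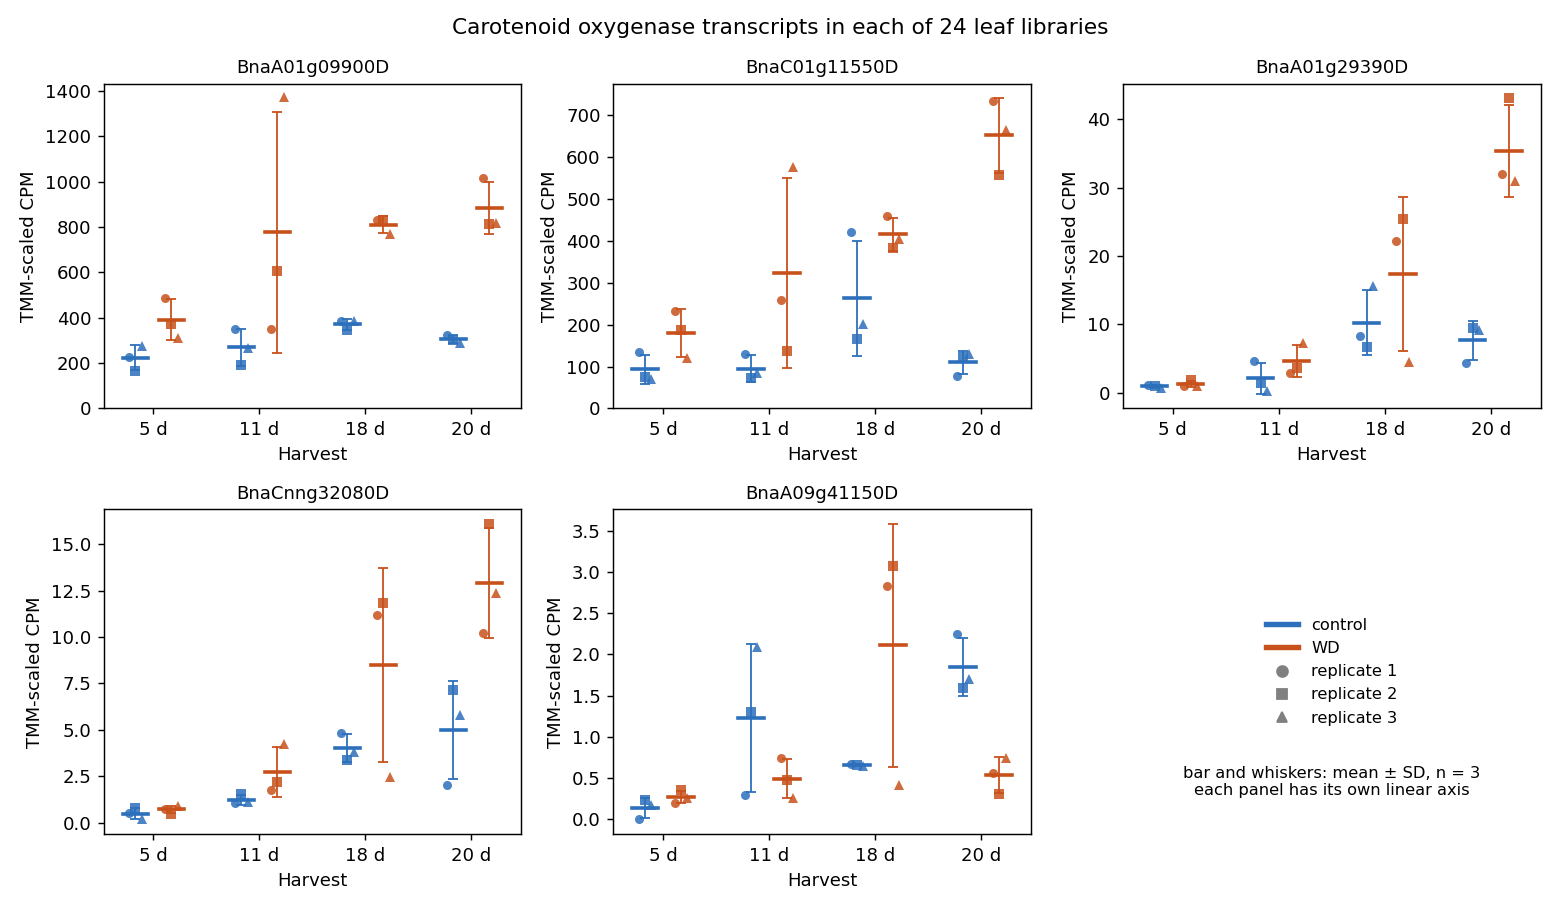
TMM-scaled CPM (y axis, linear, a separate scale in each panel) of the 5 genes at the 4 harvests (x axis) in control (blue) and WD (orange) leaves. Each symbol is a library, horizontal bars and whiskers are the mean ± SD of 3 libraries, and WD replicate 3 of 18 d (triangle) lies below every 18 d control for the 3 genes of low counts, BnaA01g29390D, BnaCnng32080D and BnaA09g41150D.

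At 18 d, the harvest that was not used to choose the genes, the fitted log2 fold change of WD against control was above 0 for all 5 genes (50.5% of all genes tested had a value above 0), and none of the 5 passed the test across all genes. Their median was 1.03, beside 0.0054 for all genes. Under edgeR's quasi-likelihood test at an adjusted p of at most 0.05, 5.5% of the genes tested were called (2.97% as higher and 2.53% as lower under WD), against 0 of these 5. Before adjustment 2 of the 5 had a p of 0.05 or less, beside 20.7% of all genes, and DESeq2 and the likelihood ratio test each called 1 of the 5 as higher. DESeq2 called 8.5% of all genes (4.77% higher) and the likelihood ratio test 8.45% (4.21% higher).

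BnaA01g09900D came nearest to the threshold. It averaged 811 ± 36.7 CPM in WD and 372 ± 24.4 CPM in controls (SD, n = 3 libraries each), a 2.19-fold difference with a log2 fold change of 1.13 (approximate SE 0.34) and an edgeR adjusted p of 0.0564. This was the only gene of the 5 whose treatments did not overlap at 18 d, as for 25.8% of all genes tested (11.9% with WD higher), and its exact two-sided permutation test gave 0.1, the smallest p that 3 libraries against 3 allow. Its adjusted p ranged from 0.0506 to 0.180 when single libraries of 18 d were left out, and it was 0.0197 by the likelihood ratio test and 0.0153 by DESeq2.

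BnaC01g11550D averaged 415 ± 39.4 CPM under WD at 18 d and 263 ± 137 CPM in controls (SD, n = 3). Its log2 fold change was 0.73 (SE 0.40, edgeR adjusted p = 0.322), and without the high control replicate 1 it was 1.09 with an adjusted p of 0.248. BnaA01g29390D had a log2 fold change of 0.67 (SE 0.64, edgeR adjusted p = 0.610). Neither difference passed the threshold with any single library left out.

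The outcome for the other genes of low counts turned on WD replicate 3. BnaCnng32080D had a log2 fold change of 1.03 (SE 0.50, edgeR adjusted p = 0.255), and without that library 1.55 with an adjusted p of 0.0345. BnaA09g41150D had 1.62 (SE 0.66, edgeR adjusted p = 0.164), and without that library 2.23 with an adjusted p of 0.0257. For BnaA01g29390D leaving it out gave 1.25 with an adjusted p of 0.209, so that 2 of the 5 genes passed without this library and 0 with it. Calls over all genes rose as well, from 5.5% to 7.95% (5.18% higher). These fits assume that the remaining pair of WD libraries varies like the other groups. In WD replicate 1 all 5 genes were above every 18 d control, in replicate 2 4 of them, and in replicate 3 only BnaA01g09900D, with 3 genes below every control. The share of all genes above or below every control was not computed for single libraries, so nothing is read from these counts. What sets this library apart was not tested.

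**Figure D2:**
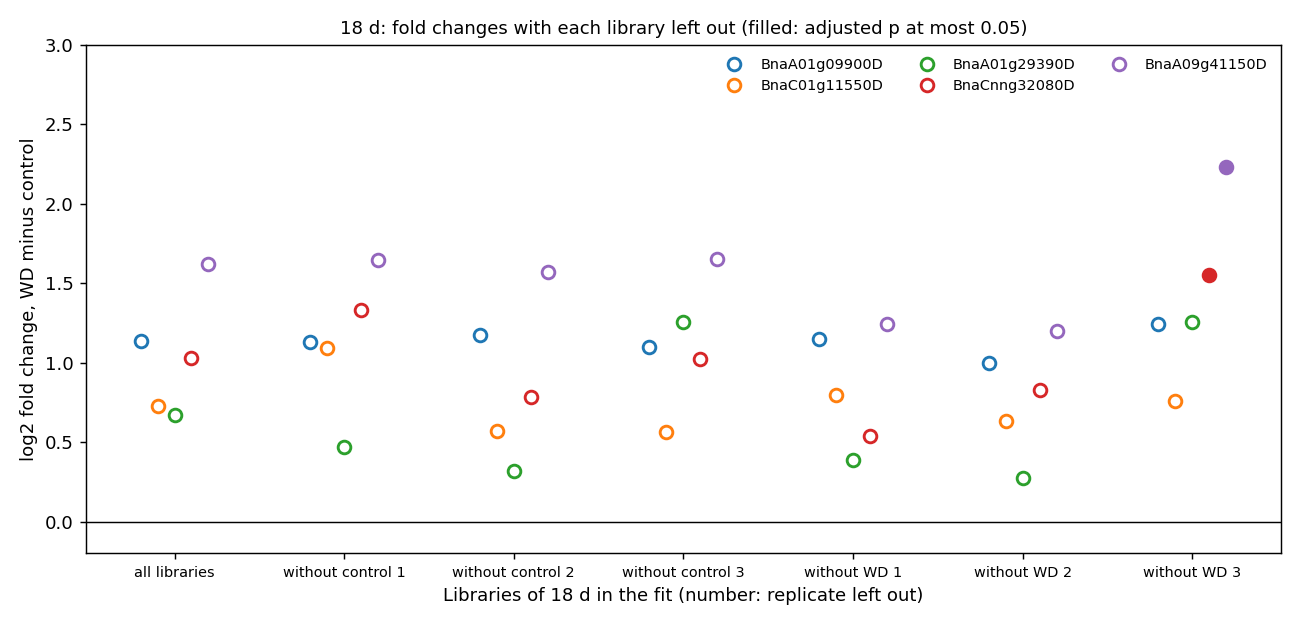
Log2 fold change of WD against control at 18 d (y axis) for the 5 genes with all libraries and with each of the 6 libraries of that harvest left out (x axis). Filled symbols have an adjusted p of at most 0.05, and only BnaCnng32080D and BnaA09g41150D without WD replicate 3 are filled.

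The descriptions at the harvests that chose the genes are set beside the 18 d values. At 5 d the log2 fold changes of WD against control were 0.83 (SE 0.33) for BnaA01g09900D, 0.99 (SE 0.40) for BnaC01g11550D, 0.54 (SE 0.83) for BnaA01g29390D and 0.66 (SE 0.72) for BnaCnng32080D. Only BnaA01g09900D had non-overlapping treatments, beside 19% of all genes tested (9.12% higher and 9.92% lower under WD). The value of 0.88 (SE 0.97) for BnaA09g41150D at 5 d rests on 0 to 5 pairs per library.

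At 11 d BnaA01g09900D had a log2 fold change of 1.52 (SE 0.34), BnaC01g11550D 1.77 (SE 0.42), BnaA01g29390D 1.23 (SE 0.71) and BnaCnng32080D 1.14 (SE 0.56). BnaA09g41150D had -1.31 (SE 0.70), the reverse direction. The treatments did not overlap for BnaC01g11550D and BnaCnng32080D, beside 19.5% of all genes (9.92% higher and 9.61% lower). Without control replicate 1, the library that lay nearer to the WD leaves, the values became 1.74, 1.91, 2.60, 1.10 and -1.88 in the order BnaA01g09900D, BnaC01g11550D, BnaA01g29390D, BnaCnng32080D and BnaA09g41150D. Without WD replicate 3 they became, in the same order, 0.87, 0.95, 0.60, 0.55 and -0.997. Leaving out control replicate 3 gave 0.59 for BnaA01g29390D and -0.54 for BnaA09g41150D.

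At 20 d the treatments were apart for all 5 genes, 4 of them with WD higher and 1 with WD lower, beside 42.4% of all genes tested (18.2% higher and 24.2% lower). The log2 fold change was 2.51 (SE 0.42) for BnaC01g11550D, a 5.70-fold difference, and 2.20 (SE 0.64) for BnaA01g29390D, 4.61-fold. It was 1.52 (SE 0.34) for BnaA01g09900D and 1.41 (SE 0.49) for BnaCnng32080D, or 2.87-fold and 2.66-fold. BnaA09g41150D had -1.75 (SE 0.68), a level of 0.298 times that of the controls. Since these contrasts chose the genes, nothing is read from the count.

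**Figure D3:**
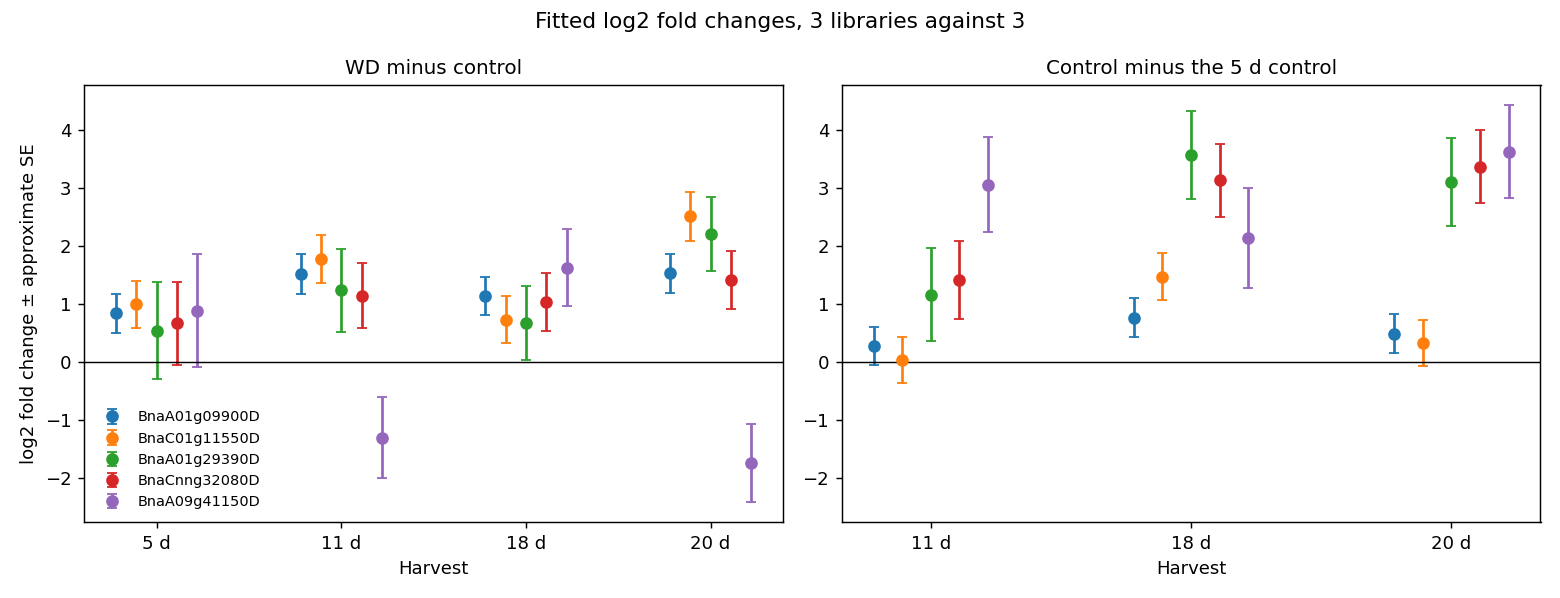
Fitted log2 fold change ± approximate SE (y axis) of the 5 genes, WD minus control at the 4 harvests (left) and later controls minus the 5 d control (right), each from 3 libraries against 3. BnaA09g41150D (purple) has 1.62 at 18 d and -1.31 and -1.75 at 11 d and 20 d, and in controls the 3 genes of low counts have values of 2.14 or more at 18 d and 20 d.

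The mild deficit held to 18 d and the severe one held to 20 d differed for these genes as follows. Both deficits came with nearly the same level of BnaA01g09900D, with a log2 fold change of 0.12 (SE 0.33) between WD at 20 d and WD at 18 d. BnaC01g11550D had 0.64 (SE 0.40) and BnaA01g29390D 1.07 (SE 0.62), and for both every WD library of 20 d lay above every WD library of 18 d, beside 28.6% of all genes tested. BnaCnng32080D had 0.61 (SE 0.49) and BnaA09g41150D -1.89 (SE 0.69), with overlapping libraries. These values rest in part on WD replicate 3 of 18 d. Without it they were 0.01 (SE 0.38) for BnaA01g09900D, 0.61 (SE 0.47) for BnaC01g11550D and 0.54 (SE 0.59) for BnaA01g29390D. BnaCnng32080D then had 0.09 (SE 0.42), still with overlap, and BnaA09g41150D -2.53 (SE 0.59), with every WD library of 20 d below the remaining 18 d ones. Soil water and leaf age differ together in this comparison and cannot be told apart. The WD libraries of 20 d also entered the choice of the genes and those of 18 d did not. The comparison is therefore not independent of that choice and is a description.

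In well-watered plants the 5 genes were also at different levels in leaves of different harvests. From 5 d to 18 d the controls did not overlap for any of the 5, all with the later harvest higher, beside 44.7% of all genes tested (23.9% higher). The 5 d controls entered the choice of the genes, so differences from them are a description and nothing is read from the count. BnaA09g41150D had at most 0.356 CPM in any 5 d library, below the filter of 0.6 CPM. It passed that filter only through later harvests, so its difference from the 5 d controls is not independent of the filter. The log2 fold changes over this interval were 3.56 (SE 0.76) for BnaA01g29390D, 3.13 (SE 0.63) for BnaCnng32080D and 2.14 (SE 0.86) for BnaA09g41150D. They were 1.47 (SE 0.41) for BnaC01g11550D and 0.76 (SE 0.33) for BnaA01g09900D. The 11.8-fold difference of BnaA01g29390D between these controls exceeds its 4.61-fold difference between WD and control at 20 d. Its log2 value of 3.56 came to 2.92 without control replicate 3 of 18 d, the highest of that group.

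From 5 d to 20 d the controls had log2 fold changes of 3.09 (SE 0.76) for BnaA01g29390D, 3.36 (SE 0.63) for BnaCnng32080D and 3.62 (SE 0.81) for BnaA09g41150D. BnaA01g09900D had 0.48 (SE 0.33) and BnaC01g11550D 0.32 (SE 0.40). All but BnaC01g11550D had non-overlapping controls, beside 51.5% of all genes. These intervals and those of 18 d share the 5 d controls, in which BnaA09g41150D held at most 4 pairs per library.

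By 11 d the controls of BnaCnng32080D (1.41, SE 0.67) and BnaA09g41150D (3.05, SE 0.83) were already above those of 5 d without overlap, beside 23.1% of all genes. The other log2 fold changes from 5 d to 11 d in controls were 0.27 (SE 0.33) for BnaA01g09900D, 0.03 (SE 0.40) for BnaC01g11550D and 1.16 (SE 0.80) for BnaA01g29390D. Without control replicate 1 of 11 d these 3 values came to 0.04, -0.12 and -0.23, while BnaCnng32080D had 1.45 and BnaA09g41150D 3.56. The controls of 20 d were lower than those of 18 d without overlap for BnaC01g11550D (log2 fold change -1.14, SE 0.41) and BnaA01g09900D (-0.27, SE 0.33), and higher for BnaA09g41150D (1.48, SE 0.65), beside 14.7% of all genes (8.22% higher and 6.51% lower). The remaining values for the 20 d against the 18 d controls, with overlapping libraries, were -0.47 (SE 0.63) for BnaA01g29390D and 0.23 (SE 0.50) for BnaCnng32080D. The 20 d controls entered the choice of the genes and the 18 d controls did not, so this comparison is not independent of that choice.

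The genes were then compared with each other as ratios of counts within a library, in which the scaling of the library cancels. Such a ratio also carries the lengths of both genes, so only its change between groups is described. BnaC01g11550D held 0.586, 0.451 and 0.258 pairs per BnaA01g09900D pair in the 5 d controls and 0.474, 0.507 and 0.386 under WD. At 11 d there were 0.372, 0.378 and 0.312 in controls and 0.736, 0.224 and 0.419 under WD. At both of these harvests the treatments overlapped. At 18 d the ratio was 1.09, 0.483 and 0.525 in controls and 0.551, 0.459 and 0.527 under WD, again with overlap. At 20 d it was 0.239, 0.404 and 0.445 in controls and 0.721, 0.683 and 0.811 under WD, without overlap. The WD mean at 20 d was 0.738 ± 0.0655 and the control mean 0.362 ± 0.109 (SD, n = 3), and 18 d control replicate 1 had the highest ratio of the 24 libraries.

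**Figure D4:**
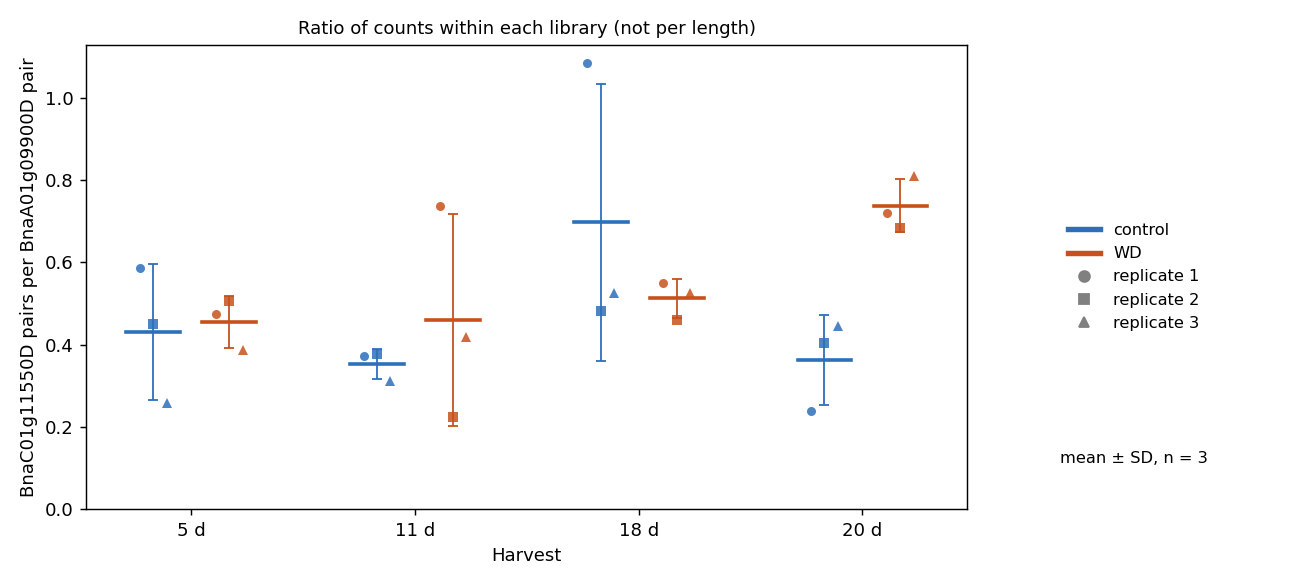
Read pairs on BnaC01g11550D per pair on BnaA01g09900D (y axis, from 0) in each library at the 4 harvests (x axis), control in blue and WD in orange, with the mean ± SD of 3 libraries. The treatments overlap at 5 d, 11 d and 18 d, and at 20 d the WD libraries (0.683 to 0.811) lie above the controls (0.239 to 0.445).

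The ratio of BnaCnng32080D to BnaA01g29390D varied less among the WD libraries than among the controls at 11 d, 18 d and 20 d. At 5 d it varied more under WD, with 0.626 ± 0.317 against 0.518 ± 0.242 in controls (SD, n = 3). The difference in spread was not tested. BnaCnng32080D held 0.504, 0.467 and 0.539 pairs per BnaA01g29390D pair in WD at 18 d, so both were low together in replicate 3. Under WD this ratio was 0.598 ± 0.0152 at 11 d and 0.364 ± 0.0409 at 20 d (SD, n = 3). In the controls it was 0.443 ± 0.177 at 18 d and 0.620 ± 0.144 at 20 d, and it ran from 0.230 to 3.80 at 11 d, where some counts were as low as 5.

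The change of the ratio between WD and control at 18 d was tested for all 10 pairs of genes, on log2 ratios of counts with 0.5 added. The treatments overlapped in each of the 10. Exact two-sided permutation tests over 3 against 3 libraries, which cannot go below 0.1, gave p from 0.2 to 1, and every value was 1 after Benjamini-Hochberg adjustment over the 10 pairs. The differences of the mean log2 ratio ranged from -0.68 for BnaA01g29390D to BnaA09g41150D up to 0.61 for BnaA01g09900D to BnaA01g29390D. No difference of any size could pass 0.05 in this design. With the counts of both strands 2 of the 10 pairs did not overlap, BnaA01g29390D and BnaCnng32080D each to BnaA09g41150D, with differences of -0.71 and -0.47 and the smallest possible p of 0.1. Without WD replicate 3, an alternative chosen after seeing the data, 6 of the 10 did not overlap, and the differences ranged from -1.32 for BnaC01g11550D to BnaA09g41150D up to 0.37 for BnaA01g09900D to BnaC01g11550D.

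The genes of most similar course were sought by the smallest root mean square difference of log2(CPM + 1) over the 24 libraries, each gene centred on its own mean, among genes of at least 5 CPM on average. For BnaA01g09900D these were BnaA10g04210D, annotated as an HSP20-like chaperone, at 0.320 and BnaA02g33940D, a regulator of chromosome condensation repeat protein, at 0.325. The median over all genes compared was 0.880. For BnaC01g11550D they were BnaC08g32210D, with a CP12 domain, known from a small chloroplast protein that binds Calvin cycle enzymes, at 0.399 and BnaC05g04430D, another HSP20-like chaperone, at 0.416.

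BnaA01g29390D was nearest to BnaA09g14490D (0.348), for which no annotation was read, and to BnaC09g15060D (0.364), which carries a DnaJ domain. For BnaCnng32080D the nearest genes were BnaC04g54340D (0.277), of a family of unknown function, and BnaC03g36940D (0.282), annotated as wound-induced. For BnaA09g41150D they were BnaA07g25100D (0.253), with the ankyrin, CG-1 and IQ domains of calmodulin-binding transcription activators, and BnaCnng31790D (0.272). BnaA09g41150D itself lies mostly below 1 CPM, where adding 1 shrinks differences, so its distances are small throughout (median 0.668).

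Among the 5 themselves, BnaA01g09900D was the 12th nearest gene to BnaC01g11550D, at 0.535, while BnaC01g11550D was the 359th nearest to BnaA01g09900D of 29231 compared. BnaA01g29390D was the 333rd nearest to BnaCnng32080D, at 0.553. BnaA09g41150D lay at 0.949 or more from each of the others, but other pairs were as far apart. BnaA01g29390D was 1.11 from BnaA01g09900D and 0.988 from BnaC01g11550D. BnaCnng32080D was 0.854 and 0.836 from the same genes.

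Genes of families linked to carotenoid synthesis, ABA synthesis or the response to ABA were taken from the same shortened table. The lists and the number of genes in each may therefore be incomplete. Whether any of the 5 genes acts in ABA synthesis is not given by the annotation. Each had been listed as changed at 5 d, 11 d or 20 d, and none of these lists is independent evidence of direction. At 18 d 5.5% of all genes tested were called. Upstream of cleavage by NCED, the single squalene/phytoene synthase, a family that holds the first enzyme of carotenoid synthesis, fell. The annotation does not say which of these synthases it is. This gene, BnaC03g08260D, had 4.84, 4.82 and 3.42 CPM in controls and 1.496, 0.736 and 2.103 CPM under WD, a log2 fold change of -1.64 (SE 0.42, edgeR adjusted p = 0.0302).

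Downstream of cleavage by NCED, short-chain dehydrogenases and then aldehyde oxidases turn xanthoxin into ABA. Of 7 short-chain dehydrogenase/reductase genes, a large family of which few act on xanthoxin, 1 rose and 1 fell (median log2 fold change -0.23). These were BnaA06g01590D, at 16.1 ± 7.58 CPM under WD and 6.34 ± 1.70 CPM in controls (1.30, SE 0.34, edgeR adjusted p = 0.0307), and BnaC09g25870D (-1.14, SE 0.25, edgeR adjusted p = 0.0145). The 2 genes of the aldehyde oxidase/xanthine dehydrogenase family did not pass edgeR's test, although both had an unadjusted p of 0.05 or less and DESeq2 called 1 of them. BnaCnng46690D had 26.1, 27.5 and 13.7 CPM in controls and 3.62, 3.61 and 0.721 CPM under WD, without overlap (log2 fold change -3.09, SE 0.92, edgeR adjusted p = 0.0568), and BnaA09g00610D had -1.96 (SE 0.78, edgeR adjusted p = 0.152).

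Among families with ABA-responsive members, 1 of 12 protein phosphatases 2C, which include negative regulators of the ABA signal, rose at 18 d. This gene, BnaA10g15830D (log2 fold change 0.87, SE 0.20, edgeR adjusted p = 0.0190), is also annotated with a forkhead-associated domain. The annotation does not say whether it acts on the ABA signal. Of 13 basic leucine zipper genes, a family of transcription factors, 3 fell and none rose under edgeR's test, with 7 at an unadjusted p of 0.05 or less and 1 called as higher by DESeq2. The largest of these changes was that of BnaC01g35040D, from 16.9 ± 4.44 CPM in controls to 4.16 ± 0.624 CPM under WD (SD, n = 3, log2 fold change -2.01, SE 0.39, edgeR adjusted p = 0.00817). Dehydrins and late embryogenesis abundant genes are families that hold protective proteins of drying cells. Most of the late embryogenesis abundant genes listed are annotated as LEA-14, and the annotation does not say whether each is protective. None of 7 dehydrins, 18 late embryogenesis abundant genes or the single HVA22 gene passed edgeR's test, and their median log2 fold changes were 0.95, -0.75 and 0.54. The counts at an unadjusted p of 0.05 or less were 5, 9 and 0, and DESeq2 called 3 dehydrins, 2 late embryogenesis abundant genes (1 higher and 1 lower) and no HVA22 gene. The 7 dehydrins all had values above 0, as had 7 of the 18 late embryogenesis abundant genes.

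Without WD replicate 3, an alternative for these lists chosen after seeing the data, 5 dehydrins and 5 late embryogenesis abundant genes passed as higher and so did 4 basic leucine zipper genes, in a fit that called 5.18% of all genes as higher, against 2.97% with that library. The single lipocalin, BnaA03g09920D, rose with and without it, from 26.5 ± 3.61 CPM in controls to 66.8 ± 18.3 CPM (log2 fold change 1.34, SE 0.25, edgeR adjusted p = 0.00734). Of the 3 chlorophyll a/b binding genes 1 rose and 2 fell, most of all BnaCnng14300D, from 100 ± 27.4 CPM to 17.7 ± 3.53 CPM (log2 fold change -2.49, SE 0.26, edgeR adjusted p = 0.000286). The part of leaf composition in the values of the carotenoid oxygenase genes was not tested.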

How the data were processed

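The files deposited by the authors hold, for each gene of the *B. napus* annotation, a count of read pairs made by STAR without regard to strand, on the forward and on the reverse strand, with no normalization. Per the labels, the libraries were stranded and polyA selected. The methods of the study name the Genoscope genome of *B. napus* with its annotation V5. The reverse counts were used, since 0.301% to 0.479% of pairs lay on the opposite strand. Rows that name no gene held 15.8% to 19.2% of pairs and were left out. Replicates differed by more than counting noise, with a chi-square per gene of 5.14 or more.

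Genes that reached 0.6 CPM in 3 or more libraries were fitted with edgeR 4.0.16 (R 4.3.3, limma 3.58.1, TMM), using 24 libraries, 8 groups and the replicate number as an additive block, as in the model of the study. Quasi-likelihood tests were adjusted over all genes by the Benjamini-Hochberg method, with a threshold of 0.05. SEs are approximate, from the log2 fold change and F. Ratios of counts, distances and exact permutation tests used scipy 1.17.1 and numpy 2.4.6 in Python 3.11.15. The procedure was tested on simulated data.

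The 5 genes and all lists were chosen with earlier results of these data known. Named besides the 5 are the 2 genes of nearest course to each and, per list, the called gene of largest change at 18 d, with 3 genes named after their values were seen (BnaC09g25870D, BnaCnng46690D and BnaA09g00610D). Alternatives were the likelihood ratio test, DESeq2 1.42.0, its size factors in edgeR, no block, no filter, both strands, fewer libraries in the fit and each library left out. The replicate numbers come from the sample titles. Tables of the study's own fold changes were used only for annotation. The identifiers matched none of the reference gene table, so no sequence, position or length is given. Floors cover counting error only, and p-values measure the spread between the replicates.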

Additional observations from a re-analysis of the deposited data

Results flagged for a closer look

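BnaC01g11550D also had read pairs on the strand opposite to the gene, which no comparison above uses. In WD leaves at 5 d there were 59, 45 and 63 such pairs (mean 55.7), or 3.75, 3.20 and 3.95 CPM without TMM scaling, and in the 5 d controls 43, 32 and 53 pairs, or 2.88, 2.41 and 2.38 CPM. The WD libraries lay above the controls at this harvest, and no test was run. At 11 d, 18 d and 20 d the treatments overlapped. As a share of the pairs on the gene, the values at 5 d were 1.70%, 1.67% and 3.30% under WD and 2.44%, 3.22% and 3.28% in controls, with overlap. Over all 24 libraries these pairs were 1.30% of those on the gene, and at most 96 in a library. No group holds enough libraries to look for single outlying values.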

How the results depend on the processing

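With 3 libraries per group, differences of low counts were weakly resolved. The 5 fold changes at 18 d kept their direction in every alternative. BnaA01g09900D (adjusted p = 0.0564) passed with a log2 fold change of 1.13 under the likelihood ratio test (0.0197), 1.14 under DESeq2 (0.0153) and 1.13 with 12 libraries of 5 d and 18 d (0.00596), so that 1 of the 5 genes was called in each of these 3 settings. With single libraries of 18 d left out, the log2 fold changes at 18 d ranged from 1.001 to 1.24 for BnaA01g09900D, 0.57 to 1.09 for BnaC01g11550D, 0.28 to 1.26 for BnaA01g29390D, 0.54 to 1.55 for BnaCnng32080D and 1.20 to 2.23 for BnaA09g41150D, and 0 to 2 of the 5 genes were called.

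Of all genes, 1631 were called higher and 1385 lower at 18 d. These counts became 2615 higher under DESeq2, 2322 lower under the likelihood ratio test, 279 higher and 920 lower with 18 d fitted alone, and 2454 higher and 2998 lower with 12 libraries. They ranged from 329 to 2837 higher and 265 to 1518 lower with single libraries left out. Without control replicate 1, control replicate 2, WD replicate 1 or WD replicate 2 there were 422, 329, 745 and 537 higher and 265, 266, 386 and 273 lower, and without WD replicate 3 2837 higher and 1518 lower. Without the replicate block, BnaA01g09900D had a log2 fold change of 1.12 (adjusted p = 0.0538) and the block changed no call of the 5 genes. The block in the main fit matches libraries by their number, although at 18 d, the harvest tested, the correlations did not show that equal numbers mark matched libraries. Control and WD libraries sharing a number had mean correlations of 0.178 (5 d), 0.252 (11 d), -0.0043 (18 d) and 0.265 (20 d), from 3 pairs each. The lowest and highest values were 0.035 and 0.332 (5 d), 0.028 and 0.418 (11 d), -0.046 and 0.059 (18 d), 0.007 and 0.503 (20 d). Across all 8 groups, the 84 pairs with equal numbers had a mean correlation of -0.0075, but these include pairs from different harvests. Of 405 recomputed descriptive values, 395 kept their sign. The 10 others were 3 gene ratios at 18 d without WD replicate 3 and 7 differences between controls of 11 d and 5 d or of 20 d and 18 d, of which BnaA01g29390D at 20 d against 18 d went from -0.47 to 0.20 without 18 d control replicate 3. The cause of these shifts was not tested.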
